A study of Populus tremula x Populus alba with 6 samples.

Results

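Copia elements are retrotransposons flanked by long terminal repeats (LTRs). Their internal part encodes a capsid protein and a polyprotein with protease, integrase, reverse transcriptase and RNase H. The element is transcribed, copied into double-stranded DNA in virus-like particles and integrated elsewhere in the genome, and DNA copies that are not integrated can be closed into circles. In plants such elements are normally silenced by DNA methylation, which the chromatin remodeller DDM1 helps to maintain, and in Arabidopsis some Copia families are known to become active in ddm1 mutants or under heat stress.

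The Copia loci examined here were all listed loci whose first family name starts with Copia or POPCOP. There were 85 of them among 436 loci of all kinds, in 115 of 665 entries over 6 lists. All carried a Copia name first. The name POPCOP came first at 0 loci and stood as a later name at 1 of them, Copia14-PTR_I-int on chromosome 3 (5414467 to 5414575). A Gypsy name was also carried by 1 Copia locus, Copia5-PTR_LTR on chromosome 18 (785846 to 786071).

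The lists came from mobilome-seq, in which extrachromosomal DNA is amplified before sequencing. The tissue was the shoot apical meristem, always from poplar clone 717-1B4, a cross written Populus tremula x Populus alba. The 6 libraries, 1 per group, were WT, RNAi ddm1 line 15 and RNAi ddm1 line 23, each under control watering and each after drought and rewatering (called drought below). The sources used here state neither the RNAi promoter nor the remaining DDM1 level, plant age or any pooling of meristems, and a DNA assay offers no marker genes with which to check the tissue. Each listed locus carries a depth value and a split-read value. Both are whole numbers not scaled to library size, and whether they count reads is not stated. The summed depth value of a list ran from 22388 to 92011, and no library has a replicate, so no value below carries a spread within a group. A locus missing from a list is called unlisted, since the lowest listed depth value was 3 and the rule for listing a locus is not given. Over all entries the lowest split-read value was also 3, and the shortest locus had 99 bp. The lowest fraction of a locus covered by depth was 0.8009. Whether such floors remove long loci, which are internal ones for Copia, more readily from a list with less signal was not tested. With fewer listed loci, less circular DNA and shallower sequencing cannot be told apart.

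LTR names and internal names were almost equally common among the Copia loci. A name ending in LTR was carried by 42 loci, and an internal name by 43. Their lengths ran from 102 to 4951 bp with a median of 252 bp. LTR-named loci lay between 116 and 474 bp (median 217 bp), and internal loci reached 4951 bp (median 442 bp). In 5 libraries that listed both parts, the median length of LTR loci minus that of internal loci was negative each time. It was -707 bp and -553 bp in WT, -592.5 bp and -23 bp in line 15, for control and drought, and -178 bp in control-watered line 23. The mean difference was -411 bp (SD 294, n = 5 libraries, exact two-sided sign-flip p = 0.0625, the smallest that 5 libraries allow, adjusted p = 0.3125 over 10 tests). Without the WT libraries the mean was -264.5 bp, and over loci with depth values of at least 20 it was -921 bp. Copia loci were found on 18 of 19 chromosomes. They made up 10 of 26 listed loci on chromosome 3, 9 of 66 on chromosome 1 and 0 of 10 on chromosome 9, beside 85 of 436 throughout.

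**Figure D1:**
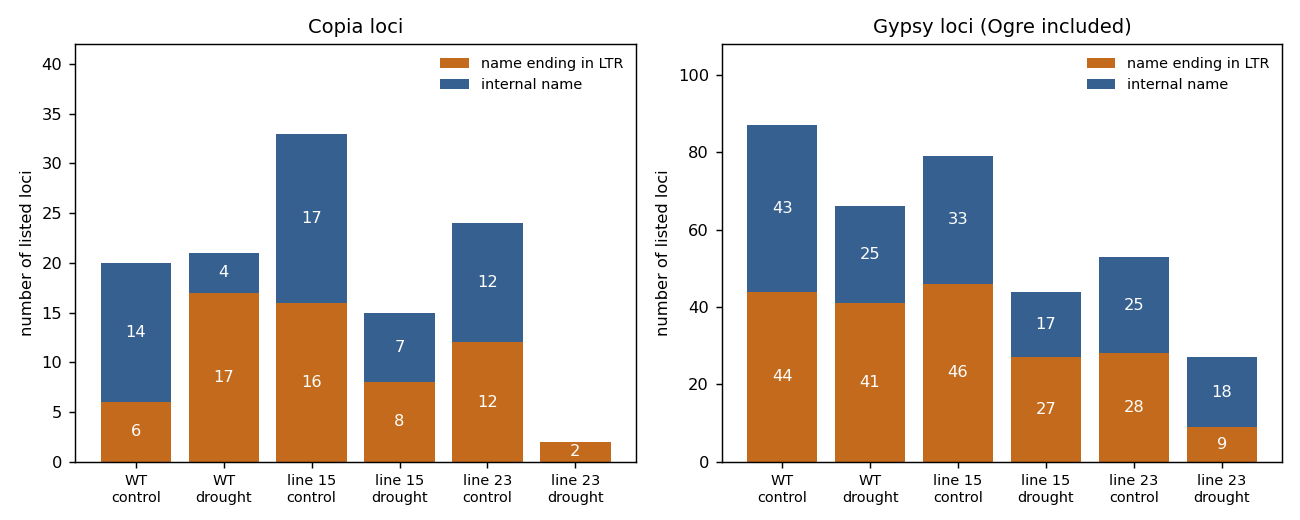
Number of Copia loci (left) and Gypsy loci (right) in each of 6 libraries, split by the first family name into LTR (orange) and internal (blue). Internal Copia loci went from 14 to 4, from 17 to 7 and from 12 to 0 after drought, while LTR-named Copia loci went from 6 to 17 in WT and down in both RNAi lines. Whole lists were also shorter after drought in each genotype. The vertical scales of the panels differ.

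The first question was how the listed Copia loci differed after drought and rewatering. Internal Copia loci were fewer after drought in each genotype. WT listed 14 internal loci under control watering and 4 after drought. Line 15 listed 17 and 7. Line 23 listed 12 and 0. The mean of the changes of -10, -10 and -12 loci was -10.7 (SD 1.15, n = 3 genotypes). The exact sign-flip test, two-sided, gave p = 0.25 (adjusted p = 0.5625). With 3 genotypes no p below 0.25 can be reached, so none of the drought comparisons could pass a threshold of 0.05. The ratio of drought to control numbers was 0.286 in WT (95% interval 0.0685 to 0.910) and 0.412 in line 15 (0.144 to 1.045, which reaches past 1). In line 23 it was 0, with an upper bound of 0.360. These intervals cover counting error only, and they compare lists and not conditions. Whole lists were also shorter after drought, with 115, 79 and 44 loci against 149, 169 and 109 for WT, line 15 and line 23. Set against the length of the list, the genotypes were less alike. Internal Copia loci made up 9.40% and then 3.48% of the list in WT, a change of -5.92 percentage points. In line 15 they made up 10.1% and 8.86%, a change of only -1.20 points, and line 23 went from 11.01% to 0%, a change of -11.01 points. The mean of these changes was -6.04 points (exact sign-flip p = 0.25, the smallest possible).

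LTR-named Copia loci did not move together. They went from 6 to 17 in WT, from 16 to 8 in line 15 and from 12 to 2 in line 23. The whole lists went from 149 to 115, from 169 to 79 and from 109 to 44 loci. The mean change of -2.33 (SD 11.6, n = 3) had an exact two-sided sign-flip p of 1, and it was +11 in WT alone against -8 and -10 in the RNAi lines. The drought to control ratio in WT was 2.83 (95% interval 1.07 to 8.78). Line 15 had a ratio of 0.5 (0.185 to 1.24), and line 23 one of 0.167 (0.0181 to 0.749). The LTR-named share of the Copia loci went from 30% to 81.0% in WT and from 48.5% to 53.3% in line 15. In line 23 it went from 50% to 100%, the latter from 2 loci.

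All Copia loci together numbered 20 (WT), 33 (line 15) and 24 (line 23) under control watering, and 21, 15 and 2 after drought. The mean change was -13 loci (SD 12.3, n = 3, exact sign-flip p = 0.5, adjusted p = 0.833). The ratio in WT was 1.05 (95% interval 0.542 to 2.04), beside 0.729 (0.553 to 0.958) for all loci that were not Copia. In line 15 it was 0.455 (0.229 to 0.861) for Copia and 0.471 (0.344 to 0.638) for the rest. In line 23 it was 0.0833 (0.00955 to 0.336) for Copia and 0.494 (0.333 to 0.723) for the rest. The intervals of Copia and of the other loci overlapped in each genotype, in line 23 only by their ends. Whether the change differed between genotypes was not tested.

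Gypsy is the other main LTR superfamily, listed at 228 loci. Its internal loci went from 43 to 25 in WT (ratio 0.581, 95% interval 0.340 to 0.974), from 33 to 17 in line 15 (0.515, 0.269 to 0.952) and from 25 to 18 in line 23 (0.720, 0.370 to 1.37). Copia supplied 24.6% of the internal LTR-retrotransposon loci in control-watered WT and 13.8% in droughted WT. It supplied 34% and 29.2% in line 15, and 32.4% and 0% in line 23. The Copia part of the LTR-named loci under control watering was 12% for WT, 25.8% for line 15 and 30% for line 23, and after drought 29.3%, 22.9% and 18.2%. The intervals of Copia and Gypsy overlapped in WT and line 15, and in line 23 the Copia interval for internal loci, up to 0.360, ended just below the Gypsy interval, which began at 0.370. The choice to compute these shares followed a look at the data, and they were not tested. Over all 6 libraries the LTR-named share of Copia minus that of Gypsy had a mean of 7.39 percentage points (SD 31.8, n = 6, exact sign-flip p = 0.781, adjusted p = 1). It was negative in 4 of 6 libraries, and the mean turned to -4.47 without the droughted line 23 list and its 2 Copia loci (n = 5, exact sign-flip p = 0.5).

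Long Copia loci were listed mainly under control watering. Loci of 1000 bp or longer, all internal, numbered 12. Control-watered WT listed 7 of these, line 15 under the same watering 5, and line 23 under it 3. The drought lists held 2 in WT, 1 in line 15 and 0 in line 23. Among loci that were not Copia, the numbers were 18, 8 and 7 in the control lists and 7, 5 and 5 in the drought lists, in the same order of genotypes. Control lists were longer. As a share of the Copia loci of a list, long loci made up 35%, 15.2% and 12.5% under control watering. After drought they made up 9.52%, 6.67% and 0%. Among the other loci the shares were 13.95%, 5.88% and 8.24%, and after drought 7.45%, 7.81% and 11.9%. That share was thus lower after drought in WT and higher in both RNAi lines. These shares were not tested. The longest Copia locus of a list was 4951 bp in control-watered WT, 2586 bp in droughted WT, 4338 bp in control-watered line 15, 1109 bp in droughted line 15, 1179 bp in control-watered line 23 and 189 bp in droughted line 23.

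Most Copia loci, like most loci of all kinds, were listed under 1 watering only. A locus in 1 library cannot be under both, and 65 of 85 Copia loci and 320 of all 436 were in 1 library. Of 85 loci, 52 were in control lists alone, 22 in drought lists alone and 11 in lists of both kinds. Internal loci divided into 33, 7 and 3, and LTR-named loci into 19, 15 and 8. All 436 loci divided into 247, 107 and 82. Within genotypes, loci listed under control watering and not after drought made up 16 of 37 Copia loci in WT, against a background of 49.1% over all loci of those lists. They made up 30 of 45 in line 15 (background 63.8%) and 23 of 25 in line 23 (background 68.1%). Loci listed after drought and not under control watering made up 17 of 37 in WT (background 34.1%), 12 of 45 in line 15 (background 22.5%) and 1 of 25 in line 23 (background 21%). As percents of the Copia loci the control-only values were 43.2, 66.7 and 92, and the drought-only values 45.9, 26.7 and 4. The line 15 values lay near the background, and line 23 lay furthest from it.

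Few Copia loci stood in both lists of a genotype, at 4 of 37 in WT (background 16.8%), 3 of 45 in line 15 (background 13.8%) and 1 of 25 in line 23 (background 10.9%). Their depth value differed by 2-fold or more between the waterings at 2 of 4 in WT (background 26.3%), 1 of 3 in line 15 (background 26.7%) and 1 of 1 in line 23 (background 46.7%). In WT, Copia31-PTR_LTR on chromosome 2 (8253201 to 8253425) went from a depth value of 5 to 12, and Copia34-PTR_I-int on chromosome 3 (5805516 to 5805682) from 33 to 14. In line 15, Copia-56_PTr-LTR on chromosome 13 (11346946 to 11347092) went from 39 to 8. In line 23, Copia6-PTR_LTR on chromosome 3 (2840901 to 2841028) went from 31 to 4. Several of these values are small, and no replicate shows how far such values vary.

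**Figure D2:**
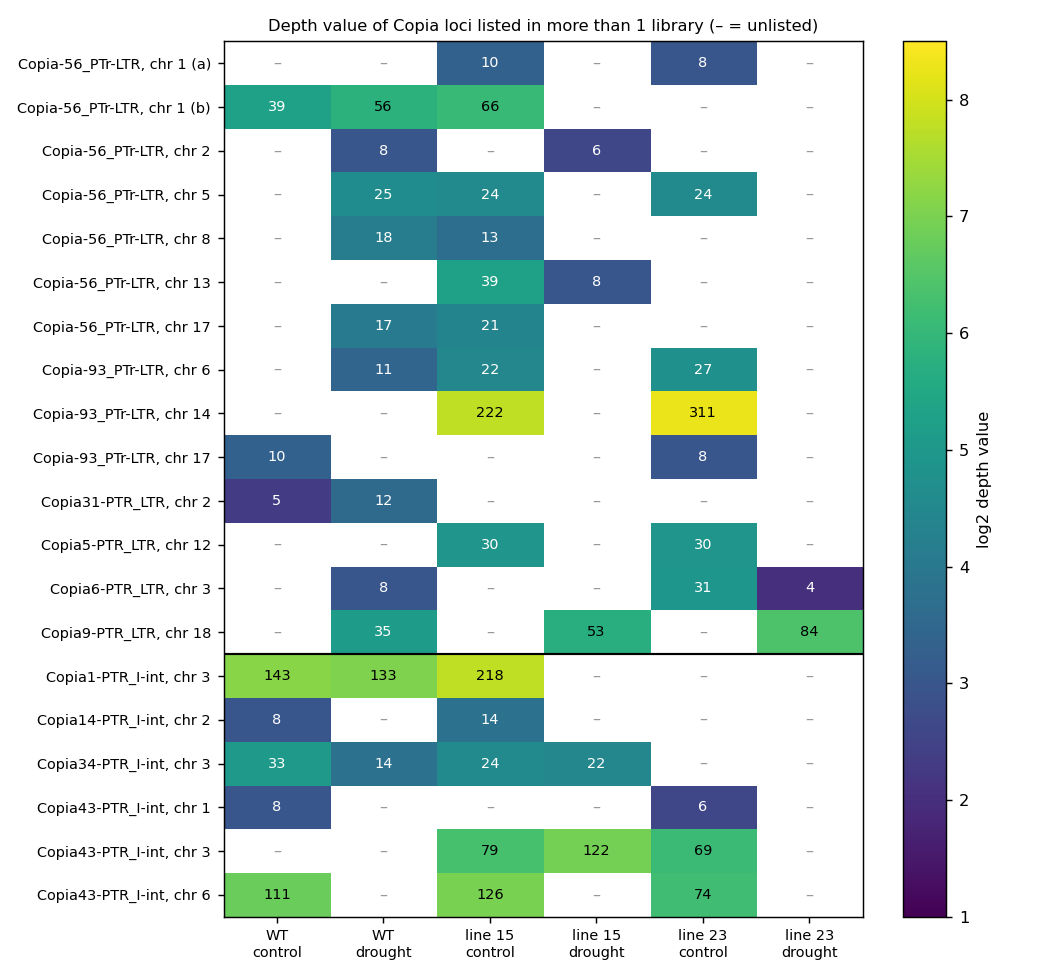
Depth value (number and colour, log2 scale) of the 20 Copia loci listed in more than 1 library, one row per locus, with LTR-named loci above the black line and internal loci below it. A dash marks an unlisted locus. Copia9-PTR_LTR on chromosome 18 has values of 35, 53 and 84 in the drought lists and none under control watering, and Copia43-PTR_I-int on chromosome 6 has 111, 126 and 74 under control watering and none after drought.

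Listing in more than 1 library was found for 20 of 85 Copia loci (23.5%), against a background of 26.6% over all 436 loci. It was found for 14 of 42 LTR-named Copia loci (33.3%) and 6 of 43 internal Copia loci (14.0%), and for Gypsy in 23.9% of LTR-named and 33.3% of internal loci. Copia-56_PTr supplied 7 of the 14, and of the 33 other LTR-named Copia loci 7 (21.2%) were in more than 1 library. No Copia locus reached 5 or 6 libraries, 1 reached 4 and 8 reached 3. Of all 436 loci, 7 reached 6 libraries, 5 reached 5, 17 reached 4 and 36 reached 3, so wide listing was rare throughout. These 9 loci, and the leading loci of each list, are described next. The rule that named them gave 16 loci.

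The locus listed most widely was Copia34-PTR_I-int on chromosome 3 (5805516 to 5805682, 167 bp). Its depth values were 33 in control-watered WT, 14 in droughted WT, 24 in control-watered line 15 and 22 in droughted line 15, with split-read values of 18, 14, 18 and 31. It was unlisted in both line 23 libraries. Only 226 bp further on lay Copia1-PTR_I-int (5805909 to 5808494, 2586 bp), a much longer internal fragment that also carries the name Copia34-PTR_I-int. It had depth values of 143 in control-watered WT, 133 in droughted WT and 218 in control-watered line 15, and split-read values of 74, 50 and 147, the highest Copia split-read values in those 3 lists. The neighbours thus shared the WT and control-watered line 15 lists, and the longer fragment alone was missing after drought in line 15. In WT the shorter fragment had a log2 ratio of drought over control of -1.24 and the longer fragment of -0.10, where the median over 38 loci shared by the WT lists was -0.38.

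Copia43 contributed internal loci only, 10 in number, on 7 chromosomes. Its locus on chromosome 6 (19735960 to 19737070, 1111 bp) was listed under control watering in every genotype and in no drought list. Its depth value under control watering was 111 for WT, 126 for line 15 and 74 for line 23. Its split-read values of 14, 3 and 4 were low beside those depths. A locus of nearly the same length on chromosome 3 (7814725 to 7815833, 1109 bp) was listed in the RNAi lines and in neither WT list, with depth values of 79 in control-watered line 15, 122 in droughted line 15 and 69 in control-watered line 23. Its split-read values were 92, 152 and 20. The 152 in droughted line 15 was the highest of all Copia entries, and its split-read value was above its depth value in both line 15 libraries. The remaining Copia43 loci were listed in at most 2 libraries.

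Copia9-PTR_LTR on chromosome 18 (7702141 to 7702329, 189 bp) had the opposite listing to the Copia43 locus on chromosome 6. It was in every drought list and in no control list. Its depth value after drought was 35 for WT, 53 for line 15 and 84 for line 23. Its split-read values were 32, 15 and 58, and the 58 was the highest Copia split-read value of droughted line 23. The other locus listed in droughted line 23, Copia6-PTR_LTR on chromosome 3, had depth values of 8 in droughted WT, 31 in control-watered line 23 and 4 in droughted line 23, with split-read values of 7, 6 and 4. Both Copia loci of droughted line 23 were therefore LTR fragments that droughted WT also listed.

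The highest Copia depth values belonged to Copia-93_PTr-LTR on chromosome 14 (15385933 to 15386186, 254 bp). It had 222 in control-watered line 15 and 311 in control-watered line 23 and was unlisted in the other 4 libraries. Its split-read values were only 3 and 7. This locus held rank 6 by depth in control-watered line 23 and rank 16 in control-watered line 15. The leading Copia locus elsewhere ranked 27 in control-watered WT, 20 in droughted WT, 20 in droughted line 15 and 13 in droughted line 23.

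Among other leading loci, Copia21-PTR_I-int supplied the longest fragments. Its locus on chromosome 10 (17798954 to 17803904, 4951 bp) had a depth value of 185 in control-watered WT only, and its locus on chromosome 8 (2643629 to 2647966, 4338 bp) had 189 in control-watered line 15 only. Split-read values were 62 and 45. Copia42-PTR_I-int on chromosome 14 (7943404 to 7944582) had a depth value of 128 in control-watered line 23 only. Copia16-PTR_I-int, with 3 loci listed only in WT, had 76 at its chromosome 3 locus (18680068 to 18681384) in droughted WT, and 72 and 74 at loci on chromosomes 6 and 10 in control-watered WT. Copia-93_PTr-LTR on chromosome 19 (9678169 to 9678400) had 40 in droughted line 15, 426 bp from a Copia53-PTR_LTR locus with 36 in the same list. Copia-93_PTr-LTR on chromosome 11 (14037422 to 14037672) had a depth value of 22 in control-watered line 23, with 29 as the highest Copia split-read value of that list.

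**Figure D3:**
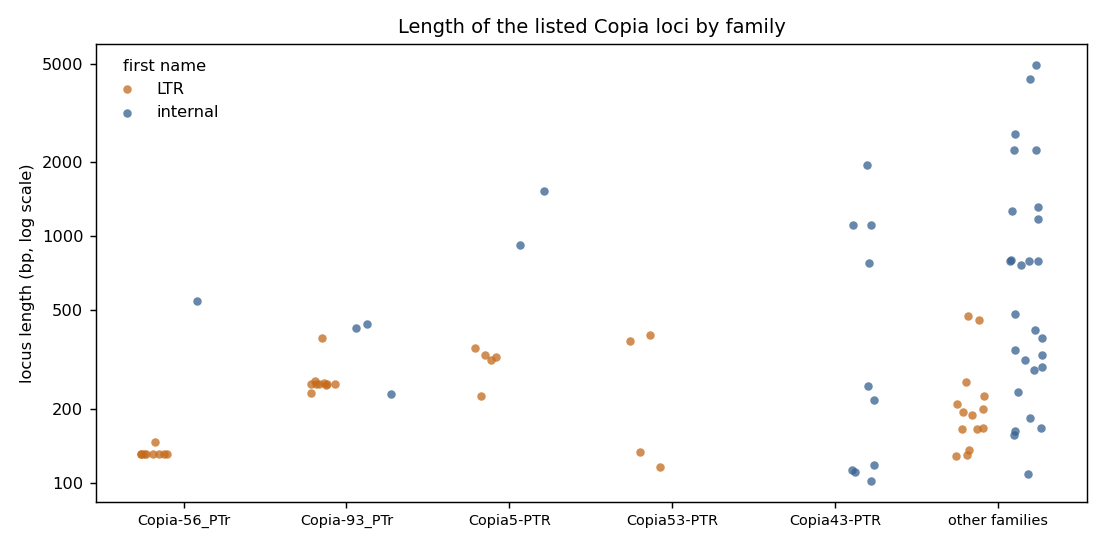
Length in bp (log axis) of each of the 85 Copia loci by family, with LTR-named loci in orange and internal loci in blue. Copia-56_PTr LTR loci stack at 131 bp and Copia-93_PTr LTR loci near 251 bp, while Copia43-PTR has internal loci only.

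By first name the 85 loci belonged to 32 families, of which 17 had 1 locus. Several names stood at 37 of the 85 loci, in part names of other families, and 2 loci had both an LTR and an internal name. Family numbers here and elsewhere therefore rest on the first name. Families with LTR-named loci only numbered 11, those with internal loci only 16, and 5 had both. In 5 families there were at least 4 loci, 44 in all. These were Copia-93_PTr with 13, Copia-56_PTr and Copia43-PTR with 10 each, Copia5-PTR with 7 and Copia53-PTR with 4.

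Copia-56_PTr was listed almost only by its LTR. Of 9 LTR loci, on 6 chromosomes, 8 were exactly 131 bp long and the other 147 bp. Among all 12 names with at least 2 loci of equal length, Copia or not, no other had more than 4 loci of its commonest length. How reads that match several copies were placed is not stated in the labels, and whether copies of this family share signal was not tested. In 18 entries the depth value of these LTR loci had a median of 19.5 and lay between 3 and 66. The highest belonged to a locus on chromosome 1 (40683871 to 40684001), with 39 in control-watered WT, 56 in droughted WT and 66 in control-watered line 15. A locus on chromosome 5 (2286940 to 2287070) had nearly equal values, at 25 in droughted WT, 24 in control-watered line 15 and 24 in control-watered line 23. The family was not in the droughted line 23 list. Under control watering WT had 2 entries, line 15 had 6 and line 23 had 2, and after drought 5, 4 and 0, which is 10 against 9 in all. Split reads covered a median fraction of 0.794 over Copia-56_PTr LTR entries. It was 0.529 over all LTR-named Copia entries, these included, and 0.430 over entries that were not Copia. The Copia-56_PTr LTR loci are shorter than 1 read of 250 bp. Other short Copia loci varied, with 0.223 at Copia7-PTR_LTR (130 bp), 0.772 at Copia40-PTR_LTR (136 bp) and 1 at a Copia53-PTR_LTR locus (116 bp). Whether the fraction followed length was not tested.

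Copia-93_PTr had 10 LTR loci on 8 chromosomes, of which 7 were within 3 bp of the commonest length, at 249 to 254 bp. A Copia5 name was also carried by 7 of the 10, so these families share part of their annotation. Under control watering WT had 2 entries, line 15 had 3 and line 23 had 8, and after drought they had 3, 1 and 0. Over the waterings this was 13 against 4, and the family made up 8 of 24 Copia loci in control-watered line 23. Apart from the chromosome 14 locus, its LTR depth values did not exceed 40. The locus on chromosome 6 (8658088 to 8658339) had 11 in droughted WT, 22 in control-watered line 15 and 27 in control-watered line 23. Copia5-PTR had 7 entries under control watering and 1 after drought, and 5 of the control entries were in line 15. Copia43-PTR had 12 and 3, and Copia53-PTR had 3 and 1. The 665 entries of all kinds were also more numerous under control watering. WT, line 15 and line 23 had 149, 169 and 109 under control watering and 115, 79 and 44 after drought. All Copia entries numbered 20, 33 and 24 under control watering and 21, 15 and 2 after drought. No family was tested against these numbers.

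Pairs of neighbouring Copia loci within 6000 bp numbered 5. Copia46-PTR_LTR was listed at 2 places on chromosome 1 that were 4253 bp apart, the first (45370725 to 45371198) in control-watered WT alone and the second (45375452 to 45375909) in droughted WT alone. Copia-56_PTr-LTR was listed at 2 places on chromosome 13 that were 4668 bp apart. The first (11346946 to 11347092) was in both line 15 libraries and the second (11351761 to 11351891) in droughted line 15 alone, with a depth value of 28. Pairs were formed from consecutive listed Copia loci, so by definition no listed Copia locus lies between their members.

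**Figure D4:**
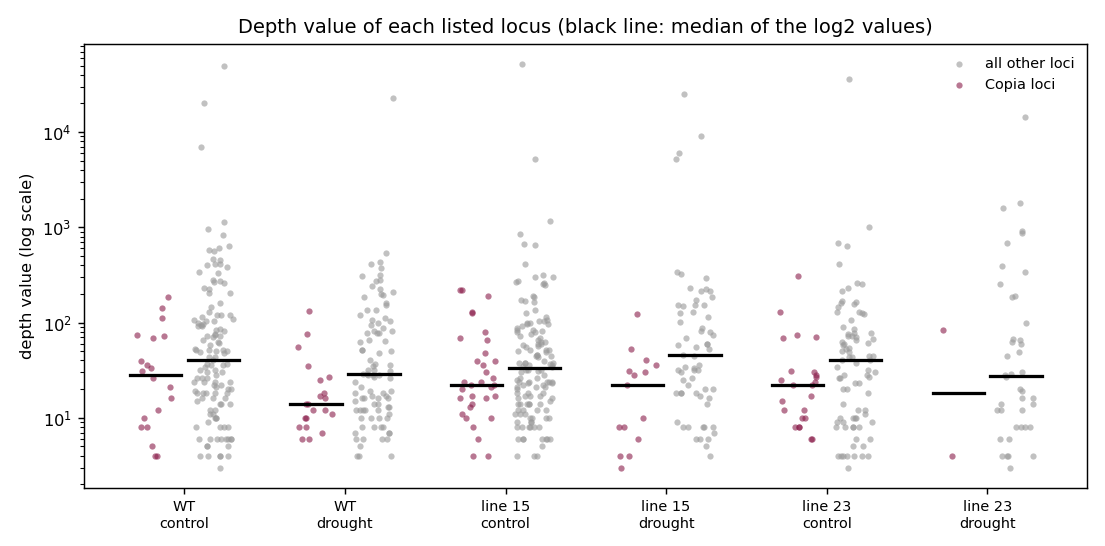
Depth value (log axis) of each Copia locus (red) and of each other locus (grey) in the 6 libraries. Black lines are medians of the log2 values. The Copia median lies below that of the other loci in every library, the droughted line 23 value resting on 2 loci with depth values of 84 and 4.

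The median log2 depth value of Copia loci lay below that of the other loci of the same list in 6 of 6 libraries. The difference under control watering was -0.49 for WT, -0.58 for line 15 and -0.86 for line 23, and after drought -1.03, -1.05 and -0.59. The mean difference was -0.77 (SD 0.24, n = 6 libraries, lower in 6 of 6). The exact two-sided sign-flip p was 0.03125, the smallest that 6 libraries allow, and it did not pass after adjustment over 10 tests (adjusted p = 0.3125). Libraries share loci, so they are not fully independent. In depth values, the medians of Copia and of the other loci were 28.5 and 40 in control-watered WT, 14 and 28.5 in droughted WT, and 22 and 33 in control-watered line 15. They were 22 and 45.5 in droughted line 15, 22 and 40 in control-watered line 23, and 44 and 27.5 in droughted line 23. With log2 taken of these medians, droughted line 23 turned the other way and the mean was -0.56 (exact sign-flip p = 0.125). Divided by locus length, the mean difference was -0.42 (exact sign-flip p = 0.1875). The lengths themselves went in different directions, with Copia medians longer than those of other loci in 2 libraries and shorter in 4 (mean -58.5 bp, SD 112, n = 6, exact sign-flip p = 0.281).

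No Copia locus came near the highest signals of the series. The highest Copia depth value was 311, against 51684 over all loci. Their share of a list's summed depth ranged from 0.393% to 2.29%, while their share of its loci ranged from 4.55% to 22%. In each list 1 locus that was not Copia held between 49.5% and 81.8% of the summed depth. Without that locus the Copia share ranged from 1.09% in droughted line 23 to 12% in control-watered line 23. Depth values under 20 were found in 55 of 115 Copia entries (47.8%), against 35.5% of the other entries. Across the Copia loci of a list, longer loci tended to have higher depth values. Spearman's rho between length and depth was 0.740 in control-watered WT, 0.252 in droughted WT, 0.422 in control-watered line 15, 0.341 in droughted line 15 and 0.531 in control-watered line 23, over 20, 21, 33, 15 and 24 loci. This is a description across loci that share a library and are not replicates. It covers listed loci only, and no listed locus had a fraction covered by depth below 0.8009. How far that floor by itself ties depth to length was not tested.

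LTR-named and internal Copia loci did not differ in one direction in depth. The median log2 depth value of LTR loci minus that of internal loci was -1.45 in control-watered WT and -1.44 in droughted WT. It was 0.06 in control-watered line 15, 1.56 in droughted line 15 and 0.78 in control-watered line 23. The mean of -0.10 (SD 1.34, n = 5, exact sign-flip p = 1) turned to 0.70 when depth was divided by length (exact sign-flip p = 0.25). Relative to depth, the split-read value was lower at LTR loci than at internal loci in 4 of 5 libraries, with a mean log2 difference of -0.64 (SD 0.61, exact sign-flip p = 0.125, adjusted p = 0.417). It was -0.34 without line 15 and -1.01 without WT. A split-read value above the depth value was found in 11 of 115 Copia entries, 4 of them LTR-named and 7 internal. That was 9.57% of Copia entries, against 10% of the other entries.

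The second question was whether Copia listing differed between the RNAi lines and WT. The numbers of Copia loci overlapped. The 4 RNAi libraries had 33, 15, 24 and 2 loci (mean 18.5, SD 13.2, n = 4, an SD that spans both waterings), and the 2 WT libraries had 20 and 21. The difference was -2 (exact two-sided permutation p = 0.867, where 0.0667 is the smallest possible). The splits mixed both waterings and treated libraries of the same line as independent, so this p-value does not compare the genotypes within a watering. Under control watering both RNAi lines listed more Copia loci than WT (33 and 24 against 20), and after drought both listed fewer (15 and 2 against 21). As a share of the list under control watering, Copia loci made up 19.53% in line 15, 22.02% in line 23 and 13.42% in WT. After drought they made up 18.99% in line 15, 4.545% in line 23 and 18.26% in WT. By share of the list, line 23 alone was below WT after drought. Whether the difference between the RNAi lines and WT depended on watering was not tested. Copia loci listed in an RNAi library and in neither WT library numbered 48 of 85 (56.5%), against a background of 48.2% over all loci. Those listed in WT and in no RNAi library numbered 23 of 85 (27.1%), against 30.5%. The RNAi lists are 4 against 2 WT lists, and both Copia shares lay within 10 percentage points of their background. No Copia locus was listed in all RNAi libraries, or in both drought RNAi libraries, while unlisted in WT.

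The control lists of the RNAi lines shared 7 Copia loci, which is 21.2% of those of line 15 and 29.2% of those of line 23. Over loci of all kinds these lists shared 39, or 23.1% and 35.8%. Control-watered WT shared 5 Copia loci with control-watered line 15 (25% and 15.2%, against 31.5% and 27.8% over all loci). It shared 3 with control-watered line 23 (15% and 12.5%, against 21.5% and 29.4%). After drought, WT and line 15 shared 3 Copia loci (14.3% and 20%, against 22.6% and 32.9%). WT and line 23 shared 2 after drought (9.52% and 100%, against 13.9% and 36.4%), and the RNAi lines shared 1, Copia9-PTR_LTR (6.67% and 50%, against 21.5% and 38.6%). Except for the droughted line 23 list with its 2 Copia loci, each of these Copia shares was below the share over all loci, a difference that was not tested. These pairs are of like watering only. Droughted WT and control-watered line 15 also shared 7 Copia loci (33.3% and 21.2%, against 32.2% and 21.9% over all loci), close to the share over all loci.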

How the data were processed

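Mobilome-seq libraries were read as 2 reads of 250 bp per fragment, per the labels. Per the submitters' processing notes, Bowtie2 was used. Genome build, counting rules and filters: not given in the sources used here. As deposited by the authors, there was 1 list of loci per library, which was assigned by sheet name to the sample with that title. The depth and split-read signal values are as deposited, unscaled, and were taken as signal rather than counts. The deposited tables also give the fraction of each locus covered, headed as a percent. Raw read totals were not analysed here, and list sums of depth, each dominated by 1 locus, are no measure of library size.

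Starts are given counted from 1. In all 665 entries the stated length was that of the interval. Loci were matched by identical coordinates. A name not ending in LTR was taken as internal. Gypsy includes GYPOT, POPGY and Ogre names. Sign-flip and permutation tests were exact and two-sided, with Benjamini-Hochberg adjustment over 10 tests. On simulated lists the mean differences of 8 results were recovered. The RNAi minus WT number and the Copia minus other length were not among these, and p-values were not checked on those lists. Intervals of ratios come from exact 95% binomial intervals and cover counting error only. Named loci were those in 3 or more libraries, the 3 highest by depth and the highest by split reads per library, any POPCOP locus, and any locus in both drought RNAi lists or all RNAi lists but not WT; named families had 4 or more loci. Members and rules were chosen with earlier results of these data known. Other loci were named after their values were seen. No genome sequence or gene annotation was used. Python 3.11.15, NumPy 2.4.6, pandas 2.3.3 and SciPy 1.17.1 were used.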

Additional observations from a re-analysis of the deposited data

Results flagged for a closer look

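After drought and rewatering, the number of Copia loci changed by -18 in line 15 and by -22 in line 23. In WT the change was 1, from 20 to 21, which is within counting error of no change (ratio 1.05, 95% interval 0.542 to 2.04). What drew attention was the differing sign. The number of LTR-named Copia loci changed by 11 in WT, while line 15 changed by -8 and line 23 by -10. In line 15 these were 16 of 169 listed loci under control watering and 8 of 79 after drought. That fall was close to that of the whole list. With 1 pair of libraries per genotype, these differences between genotypes were not tested. In 7 sets of 4 to 6 libraries examined for an outlying library, 0 were flagged. Each set joined unreplicated libraries of different groups, so this check cannot show that no library is outlying. Droughted line 23 listed 2 Copia loci, where the other libraries listed 15 to 33.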

How the results depend on the processing

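Over 10 results, 69 values were computed under alternatives. The direction held in 58 and turned in 11. The mean change in LTR-named Copia loci after drought turned to 1.65 as percentage points of the list, and to between -9 and 1.5 when each genotype was left out (positive without line 15 or line 23). The RNAi minus WT number of Copia loci turned to 1.5 with depth values of at least 20 and to 0.428 as percentage points of the list, and lay at -7.5 without line 15 and 3.5 without line 23. The LTR share of Copia minus Gypsy turned to -4.47 without the line 23 drought library, and lay between -4.88 and 15.5 with genotypes left out. The LTR minus internal depth difference turned to 0.18 with a Copia name in any place and to 0.70 per 100 bp, and lay between -0.70 and 0.80 with genotypes left out. The cause was not tested. The change in internal Copia loci kept its direction under all 7 alternatives, between -11 and -10 with genotypes left out, and was -6.67 with depth values of at least 20. The change in all Copia loci was -20 without WT and -8.5 without line 23. Leaving out the line 23 drought library and taking log2 of the median were added after the data were seen. No replicate could be left out, since each group has 1 library. Low depth values bear on precision, with 55 of 115 Copia entries under 20, and how depth relates to listing was not tested.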
